A study of Mus musculus with 24 samples.

Results

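The hepatocyte growth factor (HGF), Met and plasminogen activator system was followed in quadriceps muscle through 9 genes taken by symbol: Hgf, Met, Plau, Plaur, Plat, Serpine2, Hgfac, Spint1 and Spint2. Of these, 6 (Met, Plau, Plaur, Plat, Serpine2 and Spint2) were among the 14159 genes with a symbol, and all 6 were tested. Hgf, Hgfac and Spint1 were not analysed here, so neither the level of the ligand nor that of its main serum activator is described. The samples were 24 bulk RNA libraries, 3 in each of 8 groups. C57BL/6 (B6) mice, an inbred laboratory strain, were compared with MRL/MpJ (MRL) mice, an inbred strain known for closing ear wounds and for a tendency to autoimmunity. In each strain the muscle was left uninjured, or a piece of it was surgically removed (volumetric muscle loss) and the gap received saline (the control injury), decellularized extracellular matrix from porcine small intestine (ECM) or polyethylene powder (PE). Injured muscle was collected at day 21. The mice were females, 6 to 8 weeks old at surgery, and no transgene or deletion is named for either strain. RNA came from the whole quadriceps. The muscle fibre genes Ckm, at 1028 to 11327 CPM, and Acta1, at 5300 to 34128 CPM (CPM being counts scaled to a common library size), were present in every library.

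HGF is secreted as an inactive single chain and signals after proteases cut it. The receptor tyrosine kinase Met then binds the cut form, and in skeletal muscle this route is known for waking quiescent satellite cells after injury. Plau encodes urokinase and Plat encodes tissue plasminogen activator. Both turn plasminogen into plasmin, a protease that degrades fibrin and matrix, and urokinase has also been described as an activator of HGF. Plaur encodes the urokinase receptor, which holds urokinase on the surface of leukocytes and other migrating cells. Serpine2 encodes protease nexin-1, a secreted inhibitor of thrombin and of plasminogen activators. Spint2 encodes a membrane-bound Kunitz inhibitor of the proteases that cut HGF.

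Levels are log2 CPM as the authors deposited them, where 1 unit is a doubling and a count of 0 stands at -3.65. At the mean effective library size of 25149682 counts, 3 counts correspond to 0.119 CPM, and all 144 values of the 6 genes lay above that. CPM does not correct for transcript length, so each gene is compared with itself and not with the others. Groups were compared with limma across all genes, and a gene was called at a Benjamini-Hochberg adjusted p under 0.05. With 3 libraries in each of 2 groups, the smallest p of an exact 2-sided permutation test is 0.1, and that p was reached wherever the groups did not overlap. Nothing in the labels says whether the 3 libraries of a group came from separate experiments. Replicate 2 of PE-treated MRL mice stood apart from its group, with a correlation across genes as low as 0.812 against another library of the group, where the lowest in the other 7 groups was 0.904. It was the highest of the 12 MRL libraries for Met, Plau, Plaur, Plat and Serpine2, and 33.9% of all genes had their highest MRL value there. Fold changes of the 6 genes that use this library are therefore given with and without it.

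**Figure D1:**
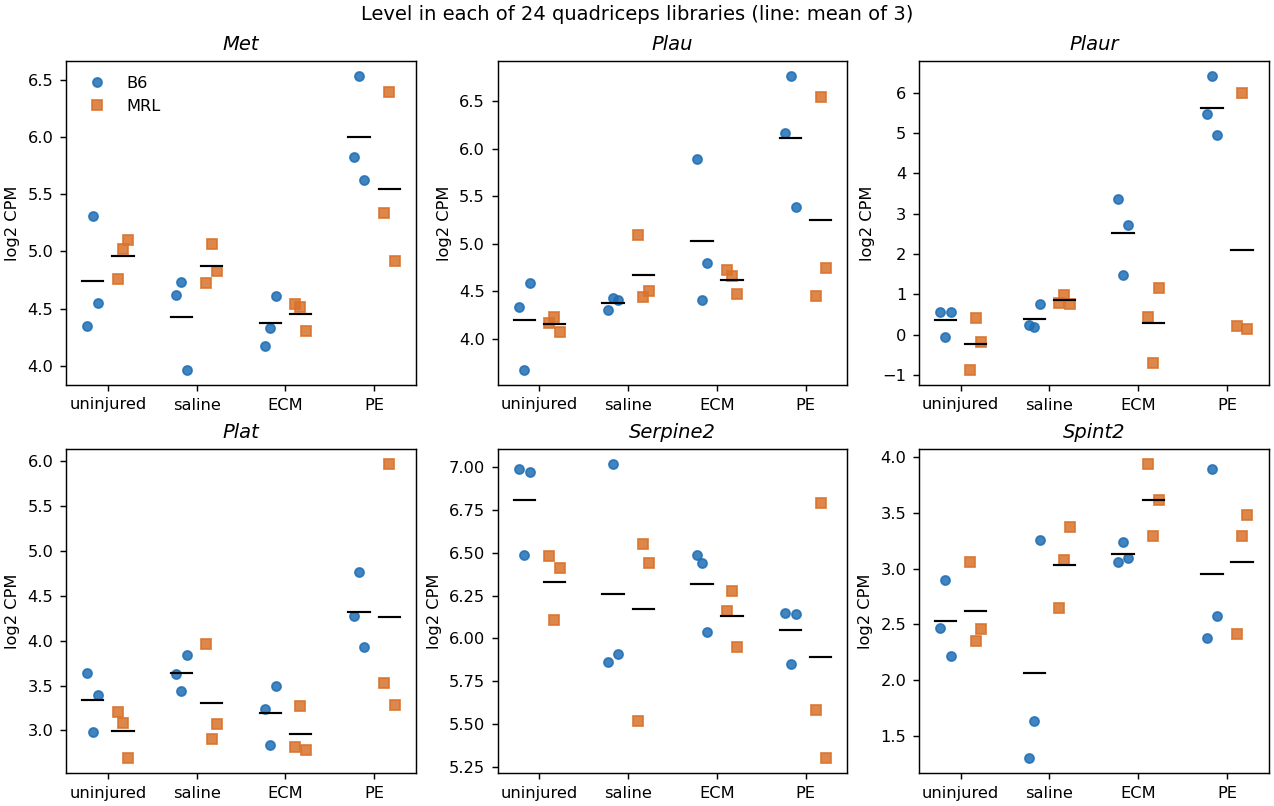
Log2 CPM (y axis) of the 6 genes in uninjured, saline-treated, ECM-treated and PE-treated muscle (x axis). Circles are B6 libraries, squares are MRL libraries and black lines are means of 3 libraries. The 3 PE-treated B6 libraries stand above the other 9 B6 libraries for Met, Plaur and Plat, and 1 PE-treated MRL library stands far above the other 2 for Plau, Plaur and Plat.

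Within B6 mice, PE raised the receptor Met, the urokinase gene Plau and the urokinase receptor gene Plaur. The largest increase was that of Plaur, which was 5.25 log2 units higher with PE than in uninjured muscle. In MRL mice none of the 6 genes was called for any pair of treatments. Of all 14159 genes, 9.73% were called there for PE against uninjured muscle, and 0 to 2 genes for each other pair. In bulk muscle fewer cells of a type and less RNA per cell cannot be told apart, and this holds for every level given here. Of 72 tests of the 6 genes within a strain, 7 were called, all of them increases in PE-treated B6 mice, where 3.43% of the tests of all genes were called. By comparison, the called members were 3 of 6 for PE against uninjured B6 muscle (all genes: 24.8%), 3 of 6 for PE against saline (5.97%) and 1 of 6 for PE against ECM (0.226%).

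Met stood at 4.35, 5.31 and 4.55 in uninjured B6 muscle, at 4.62, 4.73 and 3.96 after saline, at 4.17, 4.33 and 4.61 with ECM and at 5.83, 6.54 and 5.63 with PE (log2 CPM, replicates 1 to 3). All 3 PE-treated libraries lay above the other 9 B6 libraries, as they did for 1563 of 14159 genes. Against 1 group at a time, 27.0% of all genes were higher without overlap for uninjured, 18.7% for saline-treated and 19.5% for ECM-treated B6 muscle. In linear terms the PE-treated group held 66.4 ± 23.4 CPM and the uninjured group 27.7 ± 10.3 CPM (SD, n = 3 libraries each). Met rose by 1.26 on the log2 scale over uninjured muscle (standard error 0.32, adjusted p = 0.0118), by 1.56 over saline (adjusted p = 0.0198) and by 1.63 over ECM (adjusted p = 0.0476). These calls leaned on single libraries, and none was made when replicate 2 of PE-treated B6 mice was left out (0.99, 1.29 and 1.36). The increase over uninjured muscle was also not called without replicate 1 of uninjured B6 mice (1.07, adjusted p = 0.0544), nor that over saline without replicate 2 or 3 of saline-treated B6 mice or replicate 1 of PE-treated B6 mice (1.71, 1.33 and 1.65). The increase over ECM held in 4 of 24 fits with 1 library left out, with values from 1.36 to 1.81.

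In MRL mice Met was at 4.76, 5.02 and 5.10 without injury, at 4.72, 5.07 and 4.83 after saline, at 4.54, 4.51 and 4.30 with ECM and at 5.34, 6.40 and 4.92 with PE. The PE-treated libraries all lay above the ECM-treated ones, and 1 of them, replicate 3, lay within the range of the uninjured ones. The ECM-treated libraries lay below the uninjured and the saline-treated ones (6.94% and 5.68% of all genes were lower without overlap), and 14.8% of all genes were higher without overlap with PE than with ECM. The difference between PE and uninjured muscle was 0.59 (95% CI -0.08 to 1.26, adjusted p = 0.188), and that between PE and ECM was 1.10 (adjusted p = 0.0668). Leaving out replicate 2 of PE-treated MRL mice gave 0.17 and 0.68 with no call, and leaving out replicate 3 gave 1.42 for the difference from ECM, with a call (adjusted p = 0.0249).

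Averaged over both strains, Met was higher with PE than in uninjured muscle by 0.93 (adjusted p = 0.00458), than after saline by 1.12 (adjusted p = 0.00599) and than with ECM by 1.37 (adjusted p = 0.00704). These 3 calls held with any single library left out, at 0.71, 0.91 and 1.15 without replicate 2 of PE-treated MRL mice. An average is the mean of the B6 and the MRL difference, so its call does not show a rise in both strains. Without that library the difference from uninjured muscle was 1.26 in B6 and 0.17 in MRL mice.

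Plau, the urokinase gene, was at 4.33, 3.67 and 4.59 in uninjured B6 muscle and at 4.30, 4.43 and 4.41 after saline. It was at 5.89, 4.41 and 4.80 with ECM and at 6.17, 6.77 and 5.39 with PE. PE-treated libraries lay above all uninjured and saline-treated B6 libraries, and replicate 1 of ECM-treated mice reached into their range. Plau rose with PE by 1.91 over uninjured muscle (standard error 0.45, adjusted p = 0.00829) and by 1.72 over saline (adjusted p = 0.032). Against ECM the difference was 1.08 (adjusted p = 0.187), which was called at an adjusted p of 0.0456 without replicate 2 of PE-treated MRL mice, a library that enters only through the shared estimate of the spread. Both called increases were lost without replicate 2 of PE-treated B6 mice, at 1.58 (adjusted p = 0.0671) and 1.40 (adjusted p = 0.27). That over saline was lost as well when replicate 1 of PE-treated B6 mice (1.69) or any saline-treated B6 library was left out (1.68, 1.75 and 1.74).

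MRL libraries held Plau at 4.17, 4.23 and 4.07 without injury, at 5.09, 4.44 and 4.50 after saline, at 4.72, 4.66 and 4.47 with ECM and at 4.45, 6.55 and 4.75 with PE. Outside the PE-treated replicate 2 the injured groups overlapped each other, and saline, ECM and PE libraries all lay above the uninjured ones. The share of all genes that lay higher without overlap was 5.97% for saline, 6.19% for ECM and 18.9% for PE against uninjured MRL muscle. The difference between PE and uninjured muscle was 1.10 (95% CI 0.16 to 2.03, adjusted p = 0.0909). It was 0.45 without replicate 2 of PE-treated MRL mice, and 1.5 and called without replicate 1 (adjusted p = 0.0366). Between PE and saline it was 0.58 and turned to -0.07 without replicate 2. Over both strains Plau was higher with PE than in uninjured muscle by 1.5 (adjusted p = 0.00216, and 1.18 without replicate 2 of PE-treated MRL mice), with the call made whichever library was left out. It was higher with PE than after saline by 1.15 (adjusted p = 0.0162, and 0.99, adjusted p = 0.0627, without replicate 2 of PE-treated B6 mice). Without replicate 2 of PE-treated MRL mice this difference was 0.83 and called, as the mean of 1.72 in B6 and -0.07 in MRL mice. Against ECM the average difference was 0.86 (adjusted p = 0.0527) and 0.53 (adjusted p = 0.156) without that library, with a call when replicate 1 of ECM-treated B6 mice (1.07), replicate 3 of PE-treated B6 mice (1.04) or replicate 1 or 3 of PE-treated MRL mice (1.06 and 0.98) was left out.

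Plaur, the urokinase receptor gene, varied the most of the 6. Its SD over the 24 libraries was 2.14 log2 units, larger than that of 98.3% of all genes, and its CPM ran from 0.464 to 85.3 around a median of 1.5. The B6 libraries held 0.57, -0.05 and 0.56 without injury, 0.25, 0.19 and 0.75 after saline, 3.36, 1.49 and 2.73 with ECM and 5.48, 6.42 and 4.94 with PE. The order PE above ECM above saline and uninjured muscle held without overlap, while saline and uninjured libraries overlapped. ECM-treated values lay above those of uninjured and saline-treated muscle without overlap for 17.7% and 4.53% of all genes. PE-treated values lay above all 9 other B6 libraries for 1563 of 14159 genes. Counted as CPM, the means were 53.4 ± 28.4 with PE, 6.48 ± 3.72 with ECM, 1.26 ± 0.298 after saline and 1.23 ± 0.295 without injury (SD, n = 3 each).

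The PE-treated B6 libraries were 5.25 log2 units above uninjured muscle (standard error 1.01, adjusted p = 0.00323), a 38.1-fold difference, and 5.21 above saline (adjusted p = 0.0177). The first call held with any single library left out, over values from 4.85 to 5.59. The second was lost in 4 of 24 such fits, namely when replicate 2 or 3 of saline-treated B6 mice (5.11 and 5.39) or replicate 1 or 2 of PE-treated B6 mice (5.28 and 4.81) was left out. Against ECM the PE-treated level was 3.09 higher (adjusted p = 0.122), and the ECM-treated level was 2.16 above uninjured muscle (adjusted p = 0.289) and 2.13 above saline (adjusted p = 1). The first 2 of these were called without replicate 2 of PE-treated MRL mice (adjusted p = 5.1e-04 and 0.0228), with the same fold changes and a smaller shared estimate of the spread. The shares of all genes called were 0.226% with all libraries and 11.5% without that library for PE against ECM, and 0.424% and 3.74% for ECM against uninjured muscle.

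In MRL mice Plaur was at -0.88, 0.41 and -0.19 without injury, at 0.79, 0.98 and 0.77 after saline, at 0.45, -0.71 and 1.15 with ECM and at 0.21, 6.00 and 0.13 with PE. Of the 12 MRL libraries, 11 were at or below 2.14 CPM and the PE-treated replicate 2 was at 63.9 CPM, inside the range of PE-treated B6 mice. Saline-treated MRL libraries lay above the uninjured MRL ones and above the saline-treated B6 ones, by small amounts and with no call (5.97% and 7.48% of all genes were higher without overlap). The mean difference between PE and uninjured MRL muscle was 2.33 (95% CI 0.22 to 4.45, adjusted p = 0.107). It was 0.39 without replicate 2 of PE-treated MRL mice, and 3.28 and 3.32, both called, without replicate 1 or 3 of that group (adjusted p = 0.0386 and 0.0314). Between PE and saline it was 1.27 and turned to -0.68 without replicate 2. Over both strains Plaur was higher with PE than in uninjured muscle by 3.79 (adjusted p = 0.00127), than after saline by 3.24 (adjusted p = 0.00801) and than with ECM by 2.45 (adjusted p = 0.0215). With replicate 2 of PE-treated MRL mice left out these were 2.82, 2.27 and 1.48, each called. The last was not called without replicate 2 of ECM-treated B6 mice, of PE-treated B6 mice or of ECM-treated MRL mice (2.19, 2.25 and 2.20). Without replicate 2 of PE-treated MRL mice the difference from saline was 5.21 in B6 and -0.68 in MRL mice. The average in that fit therefore does not show a rise in MRL mice.

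**Figure D2:**
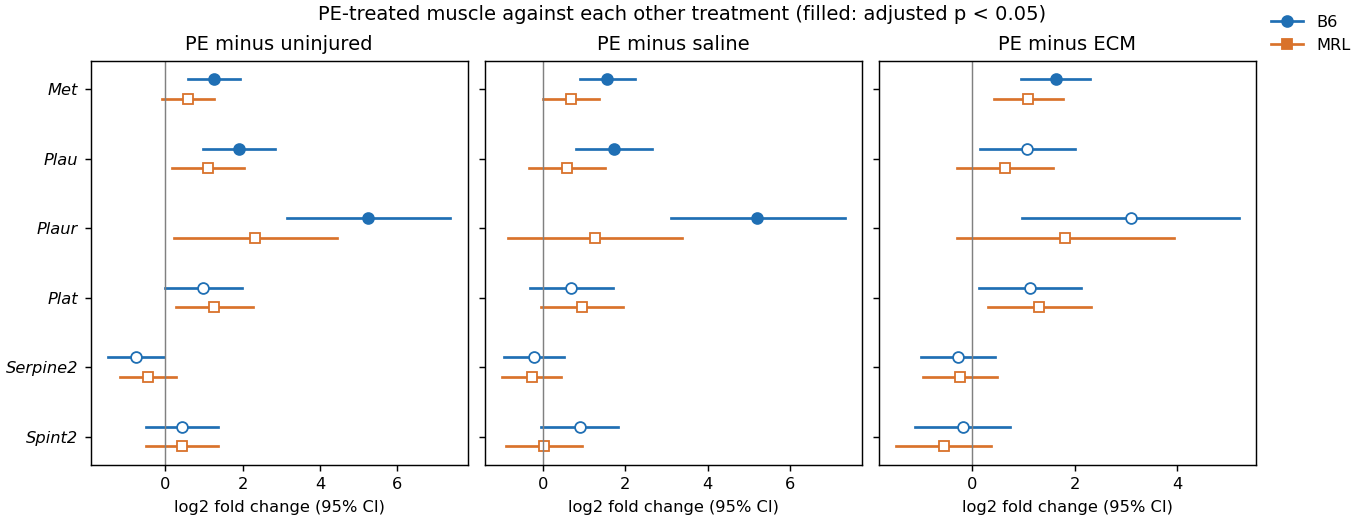
Log2 fold change with its 95% confidence interval (x axis) of PE-treated muscle against uninjured, saline-treated and ECM-treated muscle, for each gene (y axis). Circles are B6 and squares are MRL mice, and filled symbols passed an adjusted p of 0.05. The filled symbols are those of Met, Plau and Plaur in B6 mice, and the intervals of Plaur are the widest.

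Plaur lies on chromosome 7 of GRCm39, from 24161875 to 24175394, on the forward strand, and Met on chromosome 6, from 17463749 to 17573979, also on the forward strand. On the same strand are Plau on chromosome 14 (20886722 to 20893453) and Plat on chromosome 8 (23247709 to 23272871). Serpine2 on chromosome 1 (79763323 to 79839144) and Spint2 on chromosome 7 (28955747 to 28981493) are on the reverse strand, and all 6 are protein-coding in GENCODE. Since Plaur and Met both rose with PE in B6 mice, the 250 bases before their RefSeq start sites were searched on both strands for TGANTCA, the site of the AP-1 transcription factors. RefSeq windows were matched for 4 of the 6 genes (Met, Plaur, Serpine2 and Spint2), and each occurred once in GRCm39. Plau, which also rose with PE in B6 mice, and Plat were not searched. TGANTCA was present once in the windows of Plaur and Met and not in those of Serpine2 and Spint2, against 6.75% of 32851 windows of all genes. The stretches are shown because these 2 genes share the letters. Capitals mark the match, at bases -69 to -63 before the start in Plaur and -54 to -48 in Met. GENCODE starts all 4 genes further upstream than RefSeq. The Serpine2 window (79836383 to 79836632) lies inside the GENCODE gene, and the windows of Met, Plaur and Spint2 reach into theirs. The 4 windows therefore do not lie alike to the GENCODE starts. The Plaur stretch is shown up to the base before its GENCODE start. The match in Met falls in an annotated exon, and 30 bases are shown there.
Plaur, chr7:24161658-24161874, forward strand: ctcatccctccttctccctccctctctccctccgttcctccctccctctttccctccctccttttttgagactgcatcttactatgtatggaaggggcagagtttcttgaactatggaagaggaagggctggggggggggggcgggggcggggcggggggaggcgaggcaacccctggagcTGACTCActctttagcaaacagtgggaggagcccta
Met, chr6:17463890-17463919, forward strand: ctgttgcccggcTGAGTCAcgggccgggca
The GC box letters GGGCGG were found in all 4 windows (3 times each in Met, Plaur and Spint2 and 6 times, some overlapping, in Serpine2) and in 32.7% of all windows, and TATAAA in none of the 4 and in 12.4% of all. These matches describe letters in a window and say nothing of binding in these samples.

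Plat, the tissue plasminogen activator gene, was at 3.64, 2.98 and 3.40 in uninjured B6 muscle, at 3.63, 3.44 and 3.84 after saline, at 3.24, 2.84 and 3.49 with ECM and at 4.27, 4.77 and 3.93 with PE. The 3 PE-treated libraries lay above the other 9 B6 libraries, as they did for 1563 of 14159 genes. In MRL mice it was at 3.21, 3.08 and 2.69 without injury, at 3.96, 2.90 and 3.07 after saline, at 2.81, 3.27 and 2.78 with ECM and at 3.53, 5.97 and 3.28 with PE. Each PE-treated MRL library was above the uninjured and ECM-treated ones, with replicates 1 and 3 close to them. Such a separation was seen for 18.9% of all genes against uninjured and 14.8% against ECM-treated MRL muscle. The differences between PE and uninjured muscle were 0.98 in B6 mice (95% CI -0.02 to 1.98, adjusted p = 0.127) and 1.27 in MRL mice (95% CI 0.27 to 2.27, adjusted p = 0.0753). Neither was called with all libraries. The first was called once replicate 2 of PE-treated MRL mice was left out (adjusted p = 0.0116), and the second was then 0.41. The second was called without replicate 1 or 3 of that group, at 1.63 and 1.76. Against ECM the differences were 1.13 in B6 mice (adjusted p = 0.194, or 0.0133 without that replicate 2) and 1.31 in MRL mice (adjusted p = 0.0992). The MRL value was 0.45 (adjusted p = 0.486) without replicate 2 of PE-treated MRL mice, and 1.80 with a call without replicate 3.

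Averaged over the strains Plat was higher with PE than in uninjured muscle by 1.13 (adjusted p = 0.013) and than with ECM by 1.22 (adjusted p = 0.018), and the difference from saline was 0.82 (adjusted p = 0.0806). The first call held with each library left out and was 0.70 without replicate 2 of PE-treated MRL mice. The second was 0.79 without that library and was lost without replicate 2 of ECM-treated or of PE-treated B6 mice (1.13 and 1.11). The difference from saline was 0.39 (adjusted p = 0.216) without that library. It was called without replicate 1 of saline-treated MRL mice (0.98) and without replicate 1 or 3 of PE-treated MRL mice (1.00 and 1.06). In all, 10 of 36 tests of the 6 genes averaged over the strains were called, where 15.6% of the tests of all genes were. They were 4 of 6 for PE against uninjured muscle (all genes: 44.0%), 3 of 6 for PE against saline (24.2%) and 3 of 6 for PE against ECM (24.9%).

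No comparison of the 2 inhibitors was called with all libraries. Serpine2 stood at 6.99, 6.49 and 6.97 in uninjured B6 muscle, at 5.86, 7.02 and 5.91 after saline, at 6.49, 6.44 and 6.04 with ECM and at 6.15, 5.85 and 6.14 with PE. In B6 mice the 3 PE-treated libraries lay below the 3 uninjured ones, with a log2 fold change of -0.77 (95% CI -1.49 to -0.04, adjusted p = 0.104), and 24.1% of all genes were lower without overlap there. For MRL mice the values were 6.48, 6.11 and 6.41 without injury, 5.52, 6.55 and 6.44 after saline, 6.16, 6.28 and 5.95 with ECM and 5.58, 6.79 and 5.30 with PE, and every treated group overlapped the uninjured one, the PE-treated replicates 1 and 3 lying below it and replicate 2 above it. Averaged over the strains PE differed from uninjured muscle by -0.60 (adjusted p = 0.052). Both differences were called without replicate 2 of PE-treated MRL mice, at -0.77 (adjusted p = 0.0417) and -0.83 (adjusted p = 0.00814). Leaving out replicate 2 of uninjured B6 mice (-0.69), replicate 2 or 3 of saline-treated B6 mice or replicate 1 of saline-treated MRL mice (each -0.60) also gave a call for the average. Uninjured MRL muscle held less Serpine2 than uninjured B6 muscle in every library, though the nearest values were 6.48 and 6.49. The difference of -0.48 was not called (adjusted p = 0.71), and 9.61% of all genes were lower without overlap.

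Spint2 had its highest group means with ECM in both strains, without a call. B6 libraries were at 2.47, 2.90 and 2.22 without injury, 1.30, 1.63 and 3.26 after saline, 3.06, 3.24 and 3.10 with ECM and 2.38, 3.89 and 2.58 with PE. MRL libraries were at 3.06, 2.35 and 2.46 without injury, 2.65, 3.08 and 3.37 after saline, 3.94, 3.29 and 3.62 with ECM and 2.41, 3.29 and 3.48 with PE. The ECM-treated libraries lay above the uninjured ones in each strain, and the MRL ECM-treated libraries above the B6 ones. The share of all genes higher without overlap was 17.7% and 6.19% for ECM against uninjured muscle in B6 and MRL mice, and 12.9% between the ECM-treated strains. Averaged over the strains ECM differed from uninjured muscle by 0.80 (95% CI 0.14 to 1.45, adjusted p = 0.21) and from saline by 0.83 (adjusted p = 0.744). In saline-treated mice the strains differed by 0.97 (MRL minus B6, adjusted p = 0.353; overlapping groups), and by 1.57 (adjusted p = 0.0499) without replicate 3 and by 0.59 without replicate 1 of saline-treated B6 mice.

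Between the strains none of 24 tests of the 6 genes was called with limma over 4 treatments (all genes: 2.78%), and 3 had an unadjusted p under 0.05. With PE, Plaur differed by -3.50 (MRL minus B6, 95% CI -5.61 to -1.38, adjusted p = 0.0638), Plau by -0.86 (adjusted p = 0.305), Met by -0.45 (adjusted p = 0.475) and Plat by -0.06 (adjusted p = 0.967). The groups overlapped for all 4, and the MRL replicate 2 was the 1 MRL library within the B6 range of Met, Plau and Plaur. Without that library all 4 genes were lower in PE-treated MRL mice: Plaur by -5.44 (adjusted p = 1.4e-06), Plau by -1.51 (adjusted p = 0.00696), Met by -0.87 (adjusted p = 0.0337) and Plat by -0.92 (adjusted p = 0.0381). In that fit 24.6% of all genes were called, against 3.35% with all libraries. No other single omission gave a call for Met, Plau or Plaur there. Over all 24 omissions their differences ran from -0.87 to -0.13, from -1.51 to -0.46 and from -5.44 to -2.51, the smallest being those without replicate 3 (Met and Plaur) or replicate 1 (Plau) of PE-treated MRL mice. Within PE-treated mice of the same replicate number, 1 to 3, MRL minus B6 was -5.27, -0.42 and -4.81 for Plaur, -1.72, -0.22 and -0.63 for Plau and -0.49, -0.14 and -0.71 for Met. These 3 genes were lower in MRL mice in 3 of 3 pairs, by the least in the pair with replicate 2, and none was called with the replicate number as a block. Nothing in the labels pairs mice across strains, and the pairing was taken from the expression values. These counts are therefore descriptions, and the share of all genes lower in every pair is not given. Plat was lower in MRL mice in 2 of 3 pairs (-0.73 and -0.65) and higher in the pair with replicate 2. The direction for Plat was not stable, since it turned to 0.30 and 0.43 without replicate 1 or 3 of PE-treated MRL mice and to 0.16 without replicate 2 of PE-treated B6 mice. With ECM, Plaur differed by -2.23 with no overlap between the strains (adjusted p = 0.345). The adjusted p was 0.0107 without replicate 2 of PE-treated MRL mice, where 4.24% of all genes were called. Lower values without overlap were seen for 12.8% of all genes with ECM. In saline-treated muscle Plau and Plaur were higher in all MRL than in all B6 libraries, as were 7.48% of all genes, with no call.

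**Figure D3:**
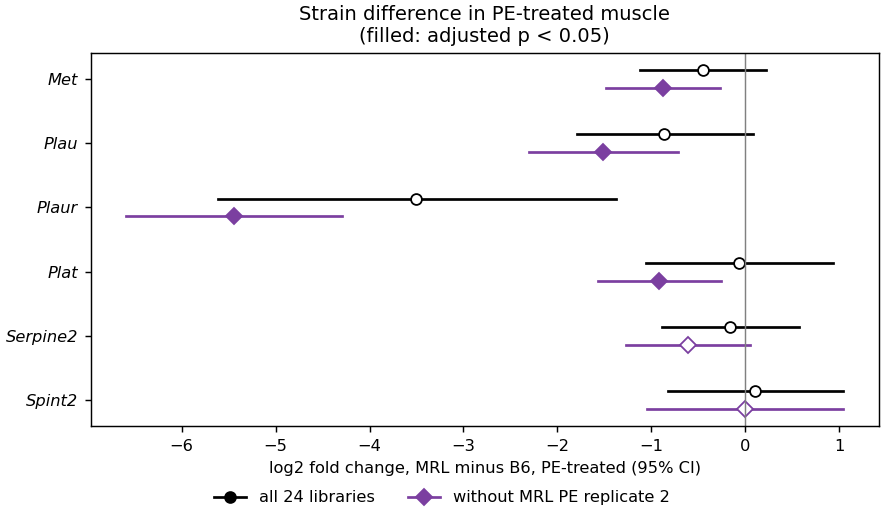
Log2 fold change between PE-treated MRL and B6 mice with its 95% confidence interval (x axis) for each gene (y axis), with all 24 libraries (circles) and without replicate 2 of PE-treated MRL mice (diamonds). Filled symbols passed an adjusted p of 0.05. No gene passed with all libraries, and Met, Plau, Plaur and Plat passed without that library.

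Whether the response to PE differed between the strains was tested directly, as the MRL difference minus the B6 difference. None of 36 such tests was called with limma (all genes: 0.00471%), and 1 had an unadjusted p under 0.05, that of Plaur for PE against saline (-3.95, 95% CI -6.94 to -0.96, adjusted p = 0.988). For PE against uninjured muscle the difference in response of Plaur was -2.92 (adjusted p = 0.45), and for PE against ECM it was -1.27 (adjusted p = 0.997). For PE against saline it was -1.15 for Plau and -0.89 for Met (adjusted p = 0.988 for both). Without replicate 2 of PE-treated MRL mice 4 tests were called (all genes: 2.65%). These were Plaur for PE against uninjured muscle (-4.86, adjusted p = 5.3e-04), saline (-5.89, adjusted p = 1.8e-04) and ECM (-3.21, adjusted p = 0.0305), and Plau for PE against saline (-1.80, adjusted p = 0.0499). The shares of all genes were 9.56%, 4.41% and 1.90% for the 3 treatments in that order. The choice of this library was made with its values known, so these values describe the other 23 libraries. Over all 24 omissions the difference in response of Plaur ran from -4.86 to -1.93 against uninjured muscle, from -5.89 to -2.96 against saline and from -3.21 to -0.28 against ECM, and that of Met against saline was -1.31 without this library, with no call.

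Macrophage and neutrophil markers moved with the same libraries. The summed CPM of 7 macrophage markers was 136 to 180 in uninjured, 303 to 335 in saline-treated, 266 to 791 in ECM-treated and 1414 to 5125 in PE-treated B6 libraries. In MRL libraries it was 82.2 to 172, 137 to 451 and 186 to 266 in the first 3 groups, and 235, 4261 and 237 in PE-treated replicates 1 to 3. Of the 7 markers, 6 were called higher with PE than in uninjured muscle in B6 mice (all genes: 14.7%) and 4 in MRL mice (5.95%). In MRL mice 0 of 7 were called without replicate 2, in a fit that called 1 of 14159 genes in this comparison. Of 8 listed macrophage markers, Adgre1 was not among the 14159 genes and is not part of the sums. No marker among the other 7 was absent, and Cd68 was at 8.30, 458 and 10.1 CPM in the PE-treated MRL replicates. Of 6 listed neutrophil markers, Ly6g and Retnlg were likewise not among the 14159 genes, which left 4. The 4 neutrophil markers summed to 16.3 to 127 CPM in PE-treated B6 libraries and to 2.92, 23.7 and 2.64 CPM in PE-treated MRL ones, against 1.00 to 9.96 CPM in the other 18 libraries, where S100a8 was at or below 0.739 CPM and at 0 in replicate 3 of uninjured MRL mice. All 4 were called higher with PE than in uninjured B6 muscle (all genes: 14.7%). The 7 fibroblast markers summed to 2338, 13100 and 1717 CPM and the 7 muscle fibre markers to 93536, 23780 and 88630 CPM in the PE-treated MRL replicates. The 6 adipocyte markers summed to 3083, 210 and 1887 CPM in them and to 72.2, 192 and 155 CPM in PE-treated B6 libraries, with replicates 1 and 3 of PE-treated MRL mice above and the uninjured B6 libraries also reaching 2385 CPM. The part of these cells in the levels of Plaur, Plau, Met and Plat was not tested.

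Plaur followed the macrophage markers across libraries (Pearson's r = 0.95 on log scales over 24 libraries, 0.93 without replicate 2 of PE-treated MRL mice and 0.74 over the 18 libraries without PE), and the neutrophil markers to a like degree (0.94, 0.95 and 0.85). Plaur also had r = 0.80 with the eosinophil markers (0.78 and 0.75 in the same order), of which 2 of 7 were in the matrix. With the fibroblast markers r was 0.81 (0.75 and 0.44) and with the T cell markers 0.71 (0.72 and 0.58). With the muscle fibre markers it was -0.78 (-0.73 and -0.50). The libraries share groups, so these values are descriptions. Set against the macrophage sum, Plaur was at 16.1, 16.6 and 21.6 CPM per 1000 CPM of markers in PE-treated B6 libraries, at 12.9, 10.3 and 9.89 with ECM, at 3.32, 3.50 and 5.24 after saline and at 8.93, 6.54 and 7.72 without injury. In PE-treated MRL libraries it was at 4.58, 15.0 and 4.30. The ratio of Plau ran the other way, at 26.0, 21.3 and 29.6 in PE-treated B6 libraries and 128, 93.4 and 133 in uninjured ones. Met showed r = 0.65 with the macrophage sum over all libraries and -0.56 over those without PE. Plat was nearest to the fibroblast markers (0.90, and 0.69 without PE), and its ratio to them was 4.13, 3.50 and 3.54 with PE and 9.09, 7.35 and 6.69 without injury in B6 mice.

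**Figure D4:**
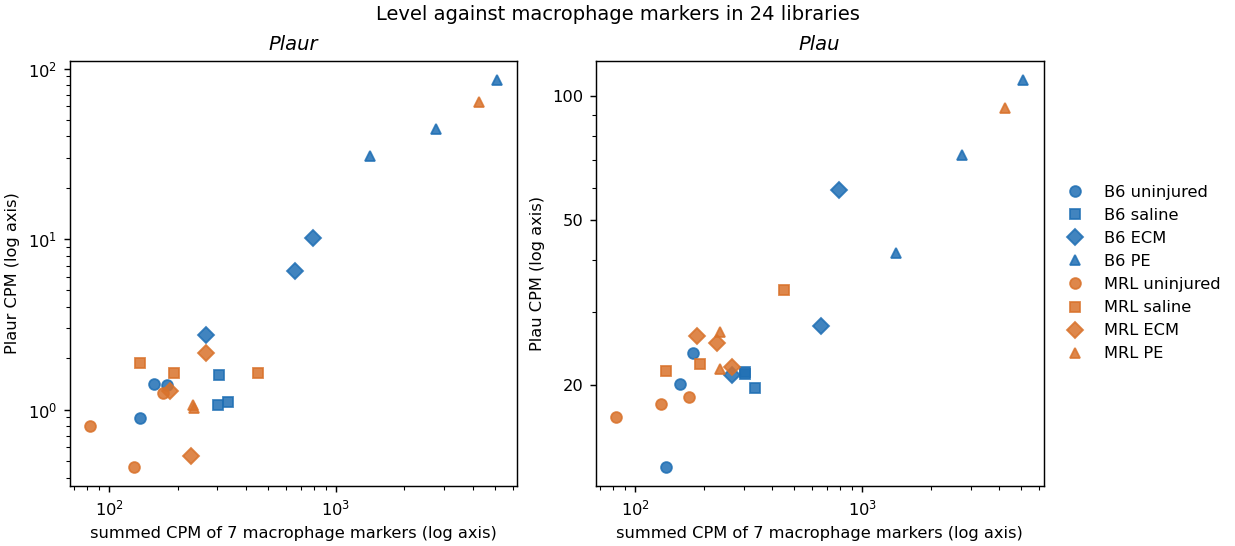
CPM of Plaur (left) and Plau (right) against the summed CPM of 7 macrophage markers in each of 24 libraries, both axes on a log scale. Colours give the strain and symbols the treatment. The 3 PE-treated B6 libraries and 1 PE-treated MRL library, with sums from 1414 to 5125, lie at the upper right, and the other 2 PE-treated MRL libraries, with sums of 235 and 237, lie among the libraries without PE.

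The 6 genes formed no single pattern among themselves. Plau and Plaur had the highest correlation (r = 0.91 over 24 libraries, 0.88 without replicate 2 of PE-treated MRL mice and 0.70 over the 18 libraries without PE). Plau with Plat gave 0.78 and Plaur with Plat 0.73, but over the libraries without PE these were 0.27 and 0.07. Met was at 0.62 with Plau, 0.67 with Plaur and 0.66 with Plat over all libraries, and at -0.53, -0.42 and -0.37 over those without PE. Serpine2 and Spint2 stayed between -0.22 and 0.28 with every other member over all 24 libraries.

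The genes most like each member over the 24 libraries were taken from the whole matrix by Pearson's r, with the value over the 18 libraries without PE given second. Plaur was closest to Slc15a3 (0.982 and 0.90), Cyba (0.976 and 0.88) and Dpep2 (0.976 and 0.89). Cyba encodes a subunit of the phagocyte NADPH oxidase and Slc15a3 a peptide transporter of endosomes and lysosomes. Plau was closest to Ptpn7 (0.957 and 0.86), P2ry6 (0.952 and 0.83) and Hmox1 (0.952 and 0.83), which encode a tyrosine phosphatase of blood cells, a UDP receptor and heme oxygenase 1. For Met the nearest were Pdxk (0.929 and 0.68), Mtpn (0.916 and 0.59) and Plekhm1 (0.912 and 0.61). For Plat they were Thy1 (0.939 and 0.77), a surface marker of fibroblasts and T cells, and Colec12 (0.937 and 0.70). The inhibitors had looser neighbours, Sel1l3 (0.794 and 0.79), Clcn4-2 (0.773 and 0.83) and Dusp26 (0.765 and 0.88) for Serpine2 and Foxp2 (0.775 and 0.85), Marveld3 (0.743 and 0.80) and Wwc1 (0.739 and 0.72) for Spint2.

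Around the 6 genes, 4 genes of the wider plasmin system rose with PE in B6 mice. Of 14 genes of that list in the matrix, 4 were called higher and 0 lower with PE than in uninjured B6 muscle, with a list median of 0.63 against 0.02 for all genes (14.7% of all genes were called higher, and 1422 of 14159 lower). They were Lrp1 (2.29, adjusted p = 0.008), the endocytic receptor that clears complexes of proteases and inhibitors, Anxa2 (2.21, adjusted p = 0.00986), which with S100a10 docks plasminogen and Plat on the cell surface, Mrc2 (1.19, adjusted p = 0.0467), a collagen uptake receptor that associates with the urokinase receptor, and Igf2r (0.86, adjusted p = 0.0275). In MRL mice 4 of 14 were called higher, Anxa2 (1.94), Lrp1 (1.77), S100a10 (1.58) and the thrombin receptor thrombomodulin, Thbd (0.70), with adjusted p from 0.0448 to 0.0474, where 9.73% of all genes were called and 5.95% were higher, and 0 of 14 without replicate 2 of PE-treated MRL mice (all genes: 1 of 14159). The 4 MRL calls were also lost with the replicate number as a block, and were made in 6 to 11 of 24 fits with 1 library left out. All 4 B6 calls were lost without replicate 2 of PE-treated B6 mice (1.97, 1.84, 1.01 and 0.77 in the order above). Igf2r was also lost without replicate 1 or 2 of uninjured B6 mice (0.72 and 0.75), and Mrc2 was called in 8 of 24 such fits and not with the replicate block. Plg, which encodes plasminogen, was not called in the PE comparisons shown here (B6 PE against uninjured muscle, 1.90, standard error 1.18, with 1 of 3 uninjured libraries at 0).

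Among the proteins that Met shares the cell surface with, Cd44 and Sdc1 rose the most in PE-treated B6 mice. Of 14 surface partners, 4 were called higher and 1 lower with PE than in uninjured B6 muscle (list median 0.12; all genes: 14.7% higher and 1422 of 14159 lower). The increases were those of Cd44 (3.83, adjusted p = 0.00603), a hyaluronan receptor that serves as a coreceptor of Met, the heparan sulfate proteoglycans Sdc1 (3.17) and Sdc3 (2.16), and the semaphorin receptor Nrp2 (1.46). Itgb4, an integrin subunit of epithelia and Schwann cells, fell by 1.5 on the log2 scale (adjusted p = 0.0388), beside a fall of 4 of 5 Schwann cell markers in the same comparison, whose part in it was not tested. These 5 markers summed to 133, 414 and 33.6 CPM in uninjured B6 replicates 1 to 3 and to 26.2, 32.9 and 23.1 CPM with PE. In MRL mice 1 of 14, Nrp2 (1.79, adjusted p = 0.0465), was called (all genes: 9.73%). That call was lost with the replicate block and without replicate 2 of PE-treated MRL mice. Of 18 signalling genes, 5 were called higher and 1 lower in B6 mice (list median 0.22), beside the same shares of all genes. The kinase gene Src rose by 2.55 (adjusted p = 0.00308), the ERK1 gene Mapk3 by 1.36 (adjusted p = 0.0318) and the adaptors Gab2 by 1.29 (adjusted p = 0.0105) and Grb2 by 0.85 (adjusted p = 0.011), while the phosphatase gene Ptpn11 fell by 0.89 (adjusted p = 0.0312). In MRL mice 0 of 18 were called (all genes: 9.73%). Cd44, Sdc1 and Src were called whichever library was left out. The B6 calls of Sdc3, Nrp2, Itgb4, Mapk3, Gab2, Grb2 and Ptpn11 were lost without replicate 2 of PE-treated B6 mice (1.76, 1.13, -1.35, 1.07, 1.06, 0.70 and -0.86). Mapk3 was lost in 4 of 24 such fits and Itgb4 and Ptpn11 in 5 each, all with a B6 library left out, and Nrp2 was called in 11 of 24 in B6 and 10 of 24 in MRL mice.

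Of 7 further listed activators and inhibitors of HGF, 2 (St14 and Hpn) were in the matrix. Hpn, the hepsin gene, was lower with PE than after saline on average over the strains (-0.69, adjusted p = 0.0497), a call made in 6 of 24 fits with 1 library left out and lost with the replicate number as a block (adjusted p = 0.0564). St14, the matriptase gene, differed by 0.95 (standard error 1.06) between PE-treated and uninjured B6 muscle. A further 8 genes are those the study names from its HGF gene set. They were chosen on these samples, so their counts are not independent evidence. The study named them for mice that received ECM, whereas the comparisons given here are of PE. All 8 were called higher with PE than in uninjured B6 muscle (list median 4.93), where 14.7% of all genes were. In MRL mice 0 of 8 were called (list median 2.38, or 0.67 without replicate 2 of PE-treated MRL mice), where 5.95% of all genes were called higher. The largest increases in B6 mice were those of Itgb2 (6.43), Msr1 (5.22), Csf2ra (5.13) and Lair1 (5.09), genes that leukocytes are known to express. Between PE-treated strains Pirb (-4.29, adjusted p = 0.00605) and Pnp2 (-2.83, adjusted p = 0.00263) were lower in MRL mice (1.74% of all genes), and all 8 were called lower without replicate 2 of PE-treated MRL mice (14.1%). Pirb was not called without replicate 1 or 3 of that group (-3.48 and -3.45). The strain difference of Pirb was not limited to PE. Uninjured muscle held it at 4.15, 4.21 and 4.52 CPM in B6 and at 1.38, 1.08 and 1.05 CPM in MRL mice. Pnp2 was near the 0.119 CPM of 3 counts in MRL mice, at 0.161, 0.112 and 0.282 CPM with PE and 0.351, 0.132 and 0.163 CPM without injury.

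**Figure D5:**
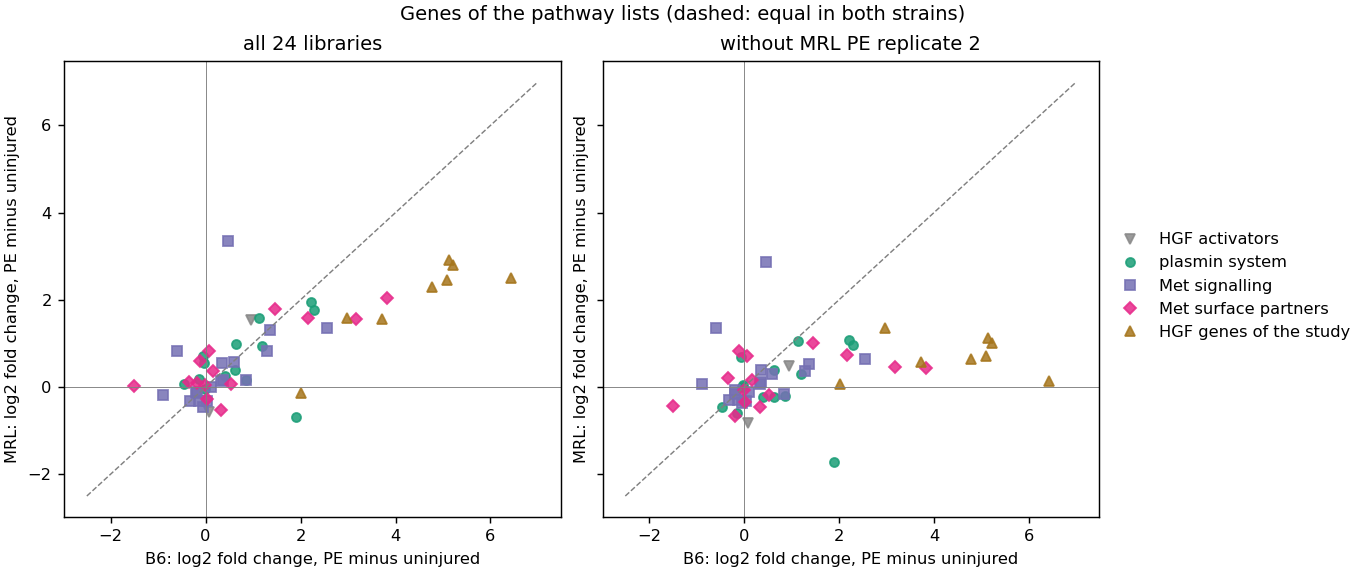
Log2 fold change of PE-treated against uninjured muscle in B6 mice (x axis) and MRL mice (y axis) for each gene of the 5 pathway lists, with all libraries (left) and without replicate 2 of PE-treated MRL mice (right). The dashed line marks equal changes. The HGF genes that the study named lie right of the line, with list medians of 4.93 in B6 and 2.38 in MRL mice, and the MRL median falls to 0.67 in the right panel.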

How the data were processed

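Bulk poly(A) RNA of whole quadriceps was measured in 24 libraries. Per the paper's methods, the authors pseudoaligned reads with kallisto to Ensembl cDNA, summed transcripts to genes with tximport (lengthScaledTPM), kept genes above 1 CPM in at least 3 libraries, scaled by TMM and deposited log2 CPM, which carries a prior count of 2. Because the deposited log2 values are normalized, no count model was fitted. Of 14160 rows, 1 has no symbol and was not used. Subtracting the prior gave linear CPM.

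Groups followed the labels. limma 3.58.1 (R 4.3.3) fitted 1 coefficient per group over 24 libraries with a variance trend. Tests were 2-sided, with Benjamini-Hochberg adjustment within each of 28 comparisons (4 between strains, 12 within a strain, 6 averaged, 6 differences in response). In simulated data for PE against saline in B6 mice (14159 genes), 85% of changes of 3 and 56% of changes of 1.5 were called, with 5 false calls. The simulated noise was independent between genes and, for each gene, equally wide in all 24 libraries, with 100 genes changed per size. These figures therefore do not give the error rates in the real libraries. Members and lists were chosen with earlier results of these data known. All members were described, up to 4 called genes per direction of each pathway list, and the 3 genes most correlated with each member, leaving out predicted genes and pseudogenes. Some results under this rule are not reported here.

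Replicate numbers were taken to pair samples where all 3 same-numbered deviations correlated above 0.1 across genes, which held between PE-treated strains (r = 0.105, 0.532 and 0.439) and in no other comparison of 2 groups, so the replicate block was an alternative. It changed no call of the 6 genes. Gene positions are GENCODE's on GRCm39. Promoter windows come from RefSeq (GRCm38.p6) and were placed on GRCm39 by exact match. Plau and Plat windows were not used here. The other alternatives, leaving out each library included, are given with their effect at the end. Linear CPM sums and ratios used Python 3.11.15. With 3 libraries per group, precision rests on the spread shared over all 8 groups.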

Additional observations from a re-analysis of the deposited data

How the results depend on the processing

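The number of calls among the 6 genes depended most on library weights (limma's gene-by-gene estimate, taken after the default estimate did not converge), which gave 7 of 24 between strains in place of 0, 20 of 72 within strains in place of 7, 16 of 36 averaged in place of 10 and 8 of 36 differences in response in place of 0. Replicate 2 of PE-treated MRL mice received the lowest weight, 0.0939. Fitting only the compared groups gave 5 averaged calls. With 1 library left out in turn the counts ran from 0 to 5 between strains, 1 to 13 within strains, 7 to 12 averaged and 0 to 4 for differences in response. The lowest count within strains was without replicate 2 of PE-treated B6 mice, and the highest within strains, between strains and for differences in response were without replicate 2 of PE-treated MRL mice. The other counts stayed within 1.5 times those reported under a log2(CPM + 1) scale, a mean log2 CPM of at least 1, equal library totals, a constant prior variance and the replicate block, which left 0, 7, 10 and 0 calls. The block ended 7 calls among the 80 single values followed, those of Hpn, Mrc2, Lrp1, Anxa2, S100a10, Thbd and Nrp2, the last 5 in MRL mice. A constant prior variance ended 9 and equal totals 4. With 1 library left out, Plau between PE and saline in MRL mice ran from -0.07 to 0.98 and Plaur from -0.68 to 2.26 (-0.53 with library weights), the lowest values being without replicate 2 of PE-treated MRL mice. Plat between PE-treated strains ran from -0.92 to 0.43 (0.16, 0.30 and 0.43 without replicate 2 of PE-treated B6 mice and replicates 1 and 3 of PE-treated MRL mice). The cause of these changes was not tested. The lowest level of any of the 6 genes, 0.464 CPM of Plaur, was above the 0.119 CPM of 3 counts.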

Other observations

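Outside the comparisons above, Ptk2, which encodes focal adhesion kinase and belongs to the Met signalling list, stood at 0 CPM in replicate 1 of ECM-treated B6 mice, replicate 3 of uninjured MRL mice and replicate 1 of ECM-treated MRL mice, and at 0.000602 CPM in replicate 2 of ECM-treated MRL mice, while it reached 11.8, 9.28 and 2.99 CPM in other libraries of the same 3 groups. It was picked for these values after they were seen.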
